A study of Mus musculus with 2 samples.

Results

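Plasmacytoid dendritic cells (pDCs) were taken from single-cell RNA libraries of CD45+ immune cells sorted from tumours of C57BL/6 mice. CD45 is the surface protein that marks blood-derived cells. A barcode counted as a pDC if it held at least 200 detected genes and at most 10% mitochondrial UMIs (unique molecular identifiers, each standing for 1 captured RNA molecule), at least 2 Siglech UMIs and at least 1 UMI over Ccr9, Klk1 and Cox6a2. At most 1 UMI over Cd3d, Cd3e and Cd3g, fewer than 5 UMIs of C1qa, C1qb and C1qc per 10000, and at most 1 Csf1r UMI were allowed. The members were thus chosen by measured counts of these genes, whose levels are given as a description. These rules found 376 pDCs among 22044 kept cells, 281 in the wild-type (WT) library and 95 in the library labelled Ythdf2 cKO. The study compared WT mice with mice carrying a conditional knockout of Ythdf2, a cytoplasmic reader that binds N6-methyladenosine (m6A) in mRNA and promotes its decay; its title places the interest in tumour-associated macrophages. Neither the Cre driver and tumour line nor the mice's age and number were stated in the labels. Each label has 1 library, so no difference below has a replicate check and none was tested. Intervals are exact 95% intervals and cover counting error only.

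pDCs are dendritic cells specialised in sensing viral and self nucleic acids. They take these up into endosomes, read them through TLR7 and TLR9, and signal through MYD88 and the transcription factor IRF7 to secrete type I interferon in large amounts. Their identity is held by the E-box-binding factor TCF4 (E2-2), and they share lymphoid features with B cell precursors, including immunoglobulin transcripts. In tumours they are often described as poor interferon producers.

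The 2 pDC pools held 1941908 UMIs (WT) and 993582 UMIs (cKO). A WT pDC had a median of 6502 UMIs and 2340 genes, a cKO pDC 10140 UMIs and 3055 genes, and the median mitochondrial share was 3.64% against 4.0%. No pDC barcode occurred in both libraries, although 28 barcodes were shared among all kept cells. In the WT pool 2 barcodes stood apart: they held 75606 and 50030 UMIs, against a highest value of 13141 among the other 279, and carried 458 and 221 UMIs of Pmel, a melanosome protein of pigment cells. These 2 deep barcodes supplied 6.47% of the WT pool, and results they touch are given with and without them. Gm42418, a locus that overlaps ribosomal RNA, was at 13574 CPM (counts scaled to a common pool total) in WT and 24108 CPM in cKO pDCs, and Rpl29 was at 1036 against 147 CPM. Both differences recurred in every other gated class measured: Gm42418 was 1.39 to 1.99 times higher, and Rpl29 was lower, at 0.0979 to 0.354 of its WT level. Their part in the pDC results was not tested.

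Of the marker genes, Ly6d, Tcf4 and Irf8 were not used by the gate, and all 3 were high. Ly6d was at 2082 CPM in both pools, and Tcf4 at 2192 CPM in WT and 2430 CPM in cKO pDCs. Outside the gate the highest Tcf4 level was 200.3 CPM in WT (Cd209a+ type 2 conventional dendritic cells, cDC2) and 272 CPM in cKO (type 1, cDC1). Irf8, a factor of dendritic cell development, was at 3696 and 3576 CPM. All 6 markers (Siglech, Ccr9, Klk1, Cox6a2, Ly6d and Tcf4) were detected together in 74.0% of WT and 81.1% of cKO pDCs, a description only, since the gate used the first 4 and the depths differ. The T cell list holds Cd3d, Cd3e and Cd3g, which the gate caps, so its low sum was partly set by the rule. The marker lists of T, B and NK cells summed to 47.9 and 60.4 CPM (T cells, 8 genes), 72.1 and 36.2 CPM (B cells, 8 genes) and 279 and 196 CPM (NK cells, 8 genes) in WT and cKO.

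**Figure D1:**
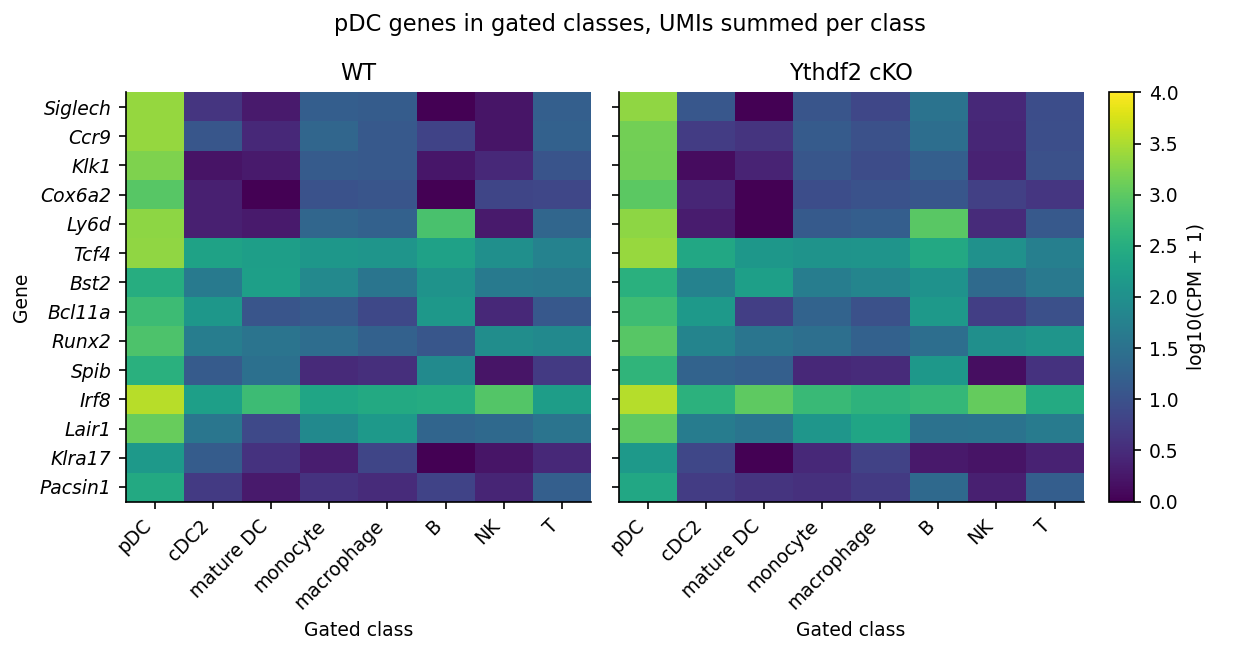
Level of 14 pDC genes (rows) in 8 gated cell classes (columns) in each library, as log10(CPM + 1) of UMIs summed over the class. The first column is bright in both panels: Ly6d, not used by the gate, stands at 2082 CPM in both pDC pools and is otherwise high in the B cell column only.

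The genes set apart most from every other gated class showed what the cells share. Ranked by the ratio of the pDC level to the next highest class, in the library where that ratio was smaller, the 20 leading genes were Cox6a2, Chdh, Dntt, Ptprf, Ccdc162, Siglech, 1810065E05Rik, Klk1, Ccr9, Pgam2, Gm21762, Klk1b27, Cd300c, Sh3bgr, Foxr1, Atp2a1, Paqr5, Epha2, Gm5086 and Smim5. Cox6a2, the muscle-type subunit of cytochrome c oxidase, was at 927 CPM in WT and 974 CPM in cKO pDCs and at most 10.1 and 10.6 CPM elsewhere. Pgam2, the muscle-type phosphoglycerate mutase, was at 274 and 195 CPM, and Atp2a1, the calcium pump of fast muscle, at 166 and 138 CPM. Dntt, the polymerase that adds bases to antigen receptor joints in lymphocyte precursors, was at 92.7 and 68.4 CPM, against at most 1.54 and 1.76 CPM elsewhere. Cd300c, an immune receptor of the CD300 family, was at 395 and 362 CPM. The gate used Siglech, Ccr9, Klk1 and Cox6a2, so the rank of these genes is no finding. Klk1b27 is a close copy of Klk1, and how the authors' counting split reads between the copies is uncertain.

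The promoters of these genes were searched for the E-box CAGGTG, the kind of site that TCF4 binds, on both strands (CACCTG on the other) in the 250 bases before the gene start, taken from RefSeq on GRCm38.p6. Of the 20 genes, 15 had a window, and 8 of these (53.3%) held the E-box: Ccr9, Cd300c, Chdh, Foxr1, Klk1, Paqr5, Pgam2 and Siglech. The gate used Ccr9, Klk1 and Siglech, which placed them among the 20, so this share rests partly on the rule. Of 27025 genes with a window, 19.4% held it. A second E-box, CAGCTG, was in 3 of the 15 and 14.7% of all. Windows are shown for the gate genes Siglech and Ccr9 and for Cd300c, which the gate did not use, with the E-box in capitals. They lie at chr7:55767934-55768183 (plus strand), chr9:123766961-123767210 (plus strand) and chr11:114960508-114960757 (minus strand). The site starts 20, 85 and 67 bases before the gene start. A match is a description of the letters, not of binding.
Siglech: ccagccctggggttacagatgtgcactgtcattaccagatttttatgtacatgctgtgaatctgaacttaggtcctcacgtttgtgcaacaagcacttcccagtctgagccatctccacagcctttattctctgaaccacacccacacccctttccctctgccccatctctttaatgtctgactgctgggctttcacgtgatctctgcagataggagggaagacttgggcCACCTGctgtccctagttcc
Ccr9: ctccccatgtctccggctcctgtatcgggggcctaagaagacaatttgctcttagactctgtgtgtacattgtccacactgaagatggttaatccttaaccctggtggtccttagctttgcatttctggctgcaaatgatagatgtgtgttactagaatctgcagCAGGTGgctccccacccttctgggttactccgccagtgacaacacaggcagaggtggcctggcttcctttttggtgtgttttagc
Cd300c: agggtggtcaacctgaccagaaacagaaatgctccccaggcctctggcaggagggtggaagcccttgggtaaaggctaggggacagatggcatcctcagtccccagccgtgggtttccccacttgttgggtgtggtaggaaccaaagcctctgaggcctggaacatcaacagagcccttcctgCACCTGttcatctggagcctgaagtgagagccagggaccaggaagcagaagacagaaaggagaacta

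Ythdf2 itself was present in pDCs of both libraries. It was at 60.8 CPM (118 UMIs, interval 50.3 to 72.8) in WT and 80.5 CPM (80 UMIs, interval 63.8 to 100) in cKO pDCs, a ratio of 1.33 (0.985 to 1.77). The level in the library labelled cKO was thus not lower, and the ratio interval includes 1. In every other gated class Ythdf2 was higher in that library, from 50.5 to 108 CPM in NK cells up to 51.7 to 398 CPM in monocytes and 41.6 to 347 CPM in neutrophils, which goes against the label. The reads come from the 5′ end of transcripts and may lie outside the deleted stretch, so the level does not check the deletion. The related readers Ythdf1 (43.8 and 46.3 CPM, ratio interval 0.722 to 1.53) and Ythdf3 (49.4 and 67.4 CPM, ratio interval 0.983 to 1.88) had intervals that include 1. Of 22 genes for m6A writers, erasers and readers, 10 reached 50 CPM in either pool and 0 of these differed by 1.5-fold or more, with a median log2 ratio of -0.07. Lyz2, the lysozyme gene whose promoter drives a widely used myeloid Cre, was at 133 CPM in WT and 33.2 CPM in cKO pDCs, far below its 8072 and 4969 CPM in monocytes.

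pDCs made up a smaller share of the cells in the library labelled cKO. They were 281 of 12179 kept cells in WT (2.31%, Clopper-Pearson interval 2.05% to 2.59%) and 95 of 9865 in cKO (0.963%, 0.780% to 1.18%), a share 2.40-fold lower (1.89 to 3.06). Without the 2 deep barcodes the difference was 2.38-fold. Among all cells of the dendritic gates (pDC, cDC1, cDC2 and mature Ccr7+ Fscn1+), pDCs were 50.6% of 555 cells in WT and 24.6% of 386 in cKO. The cDC2 gate held 1.44% (1.23% to 1.66%) of WT and 2.02% (1.75% to 2.31%) of cKO cells, the cDC1 gate 0.238% (0.160% to 0.342%) and 0.578% (0.438% to 0.748%), and the mature gate 0.575% (0.448% to 0.726%) and 0.355% (0.247% to 0.493%). B cells were 2.41% and 2.17%. With a stricter gate that allowed no UMI of Cd3, C1q or Csf1r and at most 1 of Cd79a, Ms4a1, Ncr1 or Lyz2, 114 and 61 pDCs remained and the log2 ratio of the shares was -0.60, a smaller difference. The exclusions of the gate left out 111 WT and 52 cKO barcodes with otherwise qualifying UMIs, whose median depth was 18460 and 25325 UMIs. A share is relative to all sorted cells, so fewer pDCs and more of other cells cannot be told apart.

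**Figure D2:**
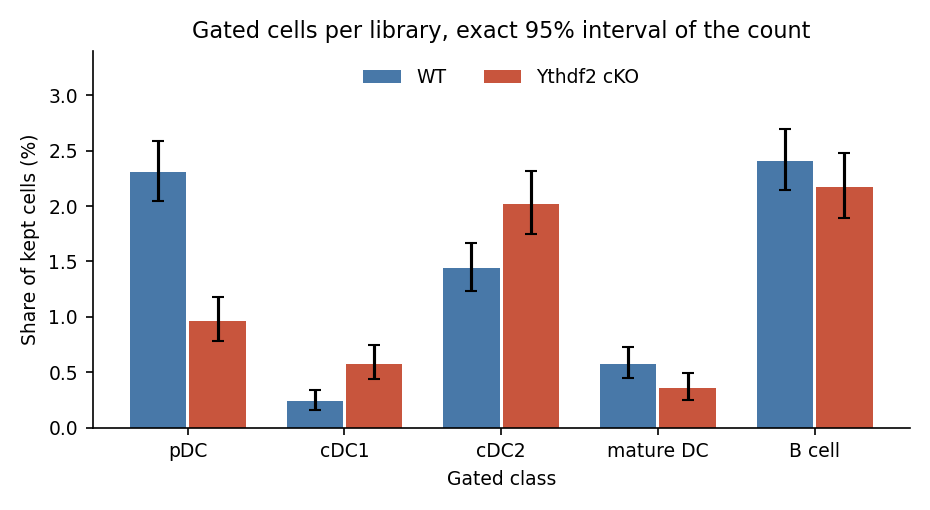
Share of kept cells (%) in 4 dendritic cell gates and the B cell gate for the WT and the Ythdf2 cKO library, with exact 95% Clopper-Pearson intervals as bars of counting error. The pDC share is 2.31% against 0.963% and the intervals do not overlap, while the cDC1 and cDC2 shares are higher in the cKO library.

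At the threshold of the rule, 3 WT pDCs and 1 cKO pDC had exactly 2 Siglech UMIs, and 3 and 2 barcodes just outside had 1 Siglech UMI and met the other conditions. A second edge was uneven. Barcodes with at least 2 Siglech UMIs but none of Ccr9, Klk1 or Cox6a2 numbered 2 in WT and 12 in cKO. All 12 held Tcf4, 12 held Runx2 and 11 Bcl11a, both transcription factors of pDCs, but only 1 held Ly6d. All 12 held Crip1 (3295 CPM) and Lgals3 (1401 CPM), 10 held Klf4, 8 held Cd209a and 6 held Zbtb46, a factor of conventional dendritic cells. Within the gate, 8 WT and 5 cKO pDCs carried only 3 of the 6 markers, and 0 of these 13 held Ly6d, which the choice of cells lacking markers largely set. Crip1, which is not among the 6, was at 1899 CPM in WT and 2581 CPM in cKO, against 175 and 185 CPM in pDCs with all 6 markers. Zbtb46 was in 3 of 8 and 3 of 5 of them, and in 0 of 208 and 0 of 77 pDCs with all 6 markers (which allows up to 1.44% and 3.9% of cells with a UMI, not a limit on cells expressing it). Inside and outside together these edge barcodes numbered 10 in WT and 17 in cKO. Of the 2 WT barcodes outside, 0 held Ly6d and 1 held Tcf4. The edge barcodes were singled out after their values were seen.

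For gene levels, UMIs were summed over the pDCs of each library and expressed as CPM. Of 3406 genes at 50 CPM or more in either pool, 64 (1.88%) were at least 1.5-fold higher and 105 (3.08%) at least 1.5-fold lower in the cKO pool, with a median log2 ratio of 0.00. Without the 2 deep barcodes these were 56 (1.65%) and 75 (2.21%) of 3392. Genes are compared with these shares below, and "higher" or "lower" past the limit means by 1.5-fold or more. At these shares a short list would hold few or no genes past the limit, so a low count alone is no result about the list. Tlr7, Tlr8, Tlr9, Slc15a4, Zeb2, Flt3, Cd80, Cd83, Cd86, Cd4, Cd8a, Cd8b1, Cd3e, Cd3g, Ncr1, Xcr1, Mki67, Top2a, Zbtb46, Rpl29 and Gm42418 are named for their roles and were picked after their values were seen.

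Genes of the core pDC program over 50 CPM mostly differed by less than 1.5-fold between the pools. Of 33 pDC surface and secreted genes, 0 passed the limit, against 1.88% of all genes upward and 3.08% downward. Their median log2 ratio was 0.02. Ratio intervals excluded 1 for 10 of these 33, and for 7 of the 17 transcription factor genes given next. Plac8 was at 4094 CPM in WT and 4626 CPM in cKO, the monocyte and pDC surface protein Ly6c2 at 2713 and 3324 CPM, Bst2 (tetherin, the antigen of PDCA-1 antibodies) at 314 and 349 CPM, and the inhibitory receptor Lair1 at 1196 and 1033 CPM. Of 17 transcription factor genes, 0 passed, with a median of 0.20: Runx2 was at 770 and 909 CPM, Bcl11a at 555 and 572 CPM, Spib at 348 and 412 CPM, and Zeb2, which represses Id2, at 384 and 307 CPM. Lag3, an inhibitory receptor that binds MHC class II, was at 279 and 305 CPM. Of the 6 immune regulation genes over 50 CPM, 0 passed the limit. Cd4 was detected in 64.0% of WT and 63.4% of cKO pDCs after thinning every cell to 5417 UMIs (225 and 93 cells; 56 and 2 shallower cells left out), against 1.55% and 0.259% of NK cells at the same depth. Before thinning, the shares were 68.7% and 74.7%.

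The apparatus that senses nucleic acids had a median log2 ratio of -0.01. Of its 30 measured genes, 19 were over 50 CPM and 0 of these passed the limit. Ratio intervals excluded 1 for 4 of the 19. Tlr7, the endosomal sensor of single-stranded RNA, was at 164 and 163 CPM. Unc93b1, which carries it to the endosome, was at 560 and 515 CPM, Slc15a4, an endosomal transporter needed for its signal, at 111 and 106 CPM, and the exonuclease Pld4 at 1158 and 1097 CPM. Tlr9, the DNA sensor, was low at 7.21 and 6.04 CPM, Tlr8 was at 0 in both, and Irf7 was at 329 and 378 CPM. In the other gated classes Irf7 differed more between the libraries, from 1.62 times higher in cDC2 to 5.26 times in mature dendritic cells, against 1.15 times in pDCs.

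Interferon genes were almost silent. Of 20 type I and III interferon genes, 17 had 0 UMIs in both pools, where a count of 0 allows up to 1.54 CPM in WT and 3.02 CPM in cKO. Ifnb1 had 5 UMIs and Ifna2 had 1 in WT, and Ifnk had 1 in cKO. The 5 Ifnb1 UMIs came from 4 WT cells.

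Genes that respond to type I interferon were moderately higher in the cKO pool. Of 20 genes over 50 CPM, 18 had a log2 ratio above 0 and 6 were past the limit upward (1.88% of all genes), with a median of 0.39. Isg15, a ubiquitin-like modifier, was at 21.1 CPM (interval 15.2 to 28.6) in WT and 52.3 CPM (39.1 to 68.6) in cKO. Mx1, an antiviral GTPase, was at 38.1 and 70.5 CPM, Usp18, which removes ISG15 from proteins, at 36 and 60.4 CPM, Parp14 at 45.8 and 69.4 CPM, Phf11b at 71.6 and 132 CPM, and Slfn5 at 119 and 211 CPM. Phf11b belongs to a family of close copies, so its reads may be split. The most abundant gene of the list, Ifi27l2a, was at 1376 and 1367 CPM. Without the 2 deep barcodes 5 genes passed and the median was 0.37. With at most 5% mitochondrial UMIs (244 and 82 pDCs) 0 of 17 genes passed and the median was 0.22, and with the strict gate 2 of 18 passed and it was 0.14.

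Single cells overlapped widely. After thinning to 5417 UMIs, the summed list had a median of 19 UMIs per cell (range 3 to 195) in WT and 20 UMIs (1 to 121) in cKO pDCs. Isg15 was detected in 8.89% of WT and 19.4% of cKO pDCs, against 16.0% and 16.5% of NK cells at that depth and 18.8% and 36.7% of B cells, types that may express it too. The share in pDCs was at or below 1 or both of these, so no difference is read from it. The NK and B cells compared are only the deepest: 632 WT and 561 cKO NK cells and 261 and 184 B cells were shallower and left out. The unthinned shares were 11.7% and 31.6% in pDCs, 7.38% and 15.6% in NK cells and 3.75% and 7.94% in B cells. Slfn5 was concentrated in few cells, with 231 UMIs in 72 WT cells and 210 UMIs in 30 cKO cells and 31 and 35 UMIs in the highest cell.

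The list's median log2 ratio was higher in the other gated classes below, with 1 pool per library in each. The genes over 50 CPM differ between classes, so the medians are over different sets. Ifit1, Ifit3 and Rsad2, for example, were over it in cDC2 but not in pDCs. The median log2 ratio was 0.52 in cDC2 (16 of 35 genes past the limit; 3.17% of all genes there), 0.81 in T cells (23 of 32; 4.47%), 0.82 in B cells (21 of 29; 8.37%), 0.99 in monocytes (33 of 38; 8.64%) and 1.02 in NK cells (21 of 28; 3.38%). Whether pDCs differ from these classes was not tested, since each library was measured once.

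**Figure D3:**
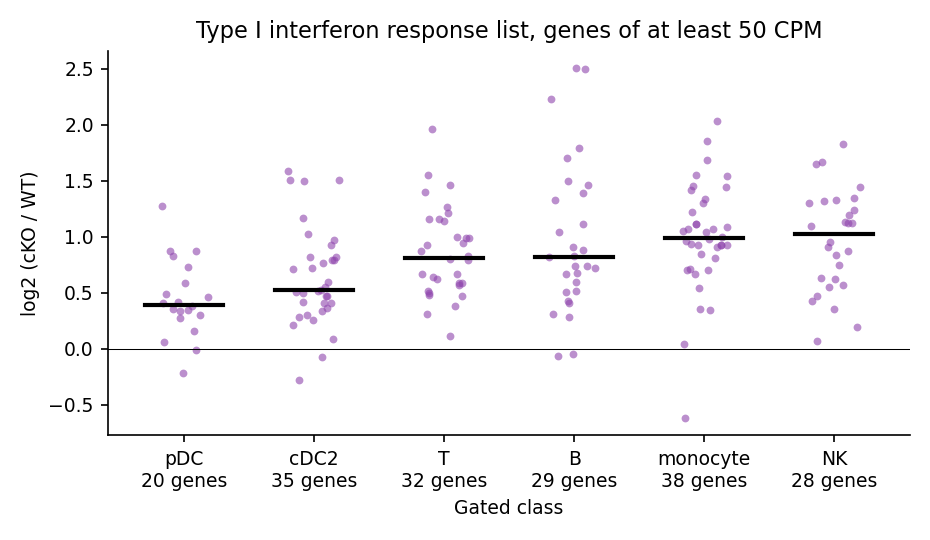
log2 ratio of cKO over WT for each gene of the type I interferon response list with at least 50 CPM in either library, in 6 gated classes; points are genes and black bars medians. The pDC median of 0.39 is the lowest of the 6, and the NK median of 1.02 the highest. The genes over 50 CPM differ between classes, so the medians are over different sets.

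The promoters of this list were searched for the core of the interferon-stimulated response element: GAAA and GAAA with any 2 bases between them, on both strands. Of the 20 genes over 50 CPM, 15 had a window and 8 (53.3%) held it, against 3.46% of 27025 genes. Of the 6 genes past the limit, Isg15, Phf11b and Slfn5 had a window and all 3 held it. Mx1, Usp18 and Parp14 are named only. The windows are shown for these 3 genes because they were past the limit and had one, with the element in capitals. They lie at chr4:156200819-156201068 (minus strand), chr14:59341331-59341580 (minus strand) and chr11:82951852-82952101 (plus strand). In Isg15, 3 overlapping matches form 1 run that begins 78 bases before the gene start; the single matches of Phf11b and Slfn5 begin at 50 and 155 bases.
Isg15: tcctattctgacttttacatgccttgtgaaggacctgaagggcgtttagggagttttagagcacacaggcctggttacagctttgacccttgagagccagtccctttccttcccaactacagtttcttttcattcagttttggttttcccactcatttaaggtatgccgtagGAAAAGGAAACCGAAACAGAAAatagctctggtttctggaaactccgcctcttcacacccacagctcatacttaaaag
Phf11b: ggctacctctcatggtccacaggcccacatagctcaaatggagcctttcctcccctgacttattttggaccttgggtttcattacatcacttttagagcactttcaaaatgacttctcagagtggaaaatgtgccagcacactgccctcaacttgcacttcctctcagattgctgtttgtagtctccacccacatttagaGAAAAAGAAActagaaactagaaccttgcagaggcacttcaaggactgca
Slfn5: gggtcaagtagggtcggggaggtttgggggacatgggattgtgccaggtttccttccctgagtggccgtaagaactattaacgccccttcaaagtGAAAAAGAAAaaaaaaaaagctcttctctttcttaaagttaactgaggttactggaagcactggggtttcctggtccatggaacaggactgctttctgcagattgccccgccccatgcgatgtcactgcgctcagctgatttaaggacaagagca

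Of 11 genes of the interferon gamma response over 50 CPM, 2 were past the limit upward and 1 downward (median 0.29). The GTPases Iigp1 (44.8 and 77.5 CPM) and Irgm1 (60.8 and 98.6 CPM) were higher, and Ciita, the master activator of MHC class II genes, was lower at 60.8 against 30.2 CPM (ratio interval 0.321 to 0.747). Its targets did not follow. Of 9 MHC class II genes, Ciita was the only one past the limit: Cd74 was at 4316 and 4522 CPM, H2-Aa at 1516 and 1596 CPM and H2-Ab1 at 1379 and 1397 CPM. Of 20 MHC class I and peptide-loading genes, all 20 had a log2 ratio above 0, with a median of 0.26, and without the deep barcodes 19 did, with a median of 0.19. Tapbpl, a peptide editor of class I, was the only one past the limit, at 53.6 and 94.6 CPM, while B2m was at 3234 and 3957 CPM and H2-K1 at 2757 and 3106 CPM.

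Homing receptors were lower where they passed. Of 14 genes over 50 CPM, Ccr9 and Cxcr3 were past the limit downward (3.08% of all genes) and 0 upward. Ccr9, the receptor for the gut and thymus chemokine CCL25, was at 2353 CPM (2285 to 2422) in WT and 1400 CPM (1327 to 1476) in cKO pDCs, a ratio of 0.595 (0.560 to 0.632). At 5417 UMIs per cell the median was 12 Ccr9 UMIs in WT (quartiles 7 and 19) and 6 in cKO (3 and 12). The gate counts Ccr9 as 1 of 3 alternative genes, so its level is given as a description. Its place among the genes past the limit is for that reason no finding. Ccr9 was also lower in T cells, monocytes, macrophages, cDC2 and neutrophils, at 81.7 CPM or less in WT. In B cells it was higher (5.44 and 27.3 CPM), and in NK cells the ratio interval includes 1. Cxcr3, the receptor for interferon-induced chemokines, was at 66.4 and 43.3 CPM. It was past the limit in 8 of 14 alternative settings. Among activation genes and cytokines, Ccl3 (195 and 96.6 CPM) and Ccl5 (65.4 and 38.2 CPM) were past the limit downward and Nfkbia, the inhibitor of NF-kB, upward (311 and 487 CPM), out of 10 genes. Nfkbia was not past the limit without the 2 deep barcodes (log2 ratio 0.56), and was past it in 9 of 14 alternative settings. Both chemokines were on the other side of 0 under the strict gate. Cd80, Cd86 and Cd83, which mark pDC activation, were at 0, 9.27 and 5.66 CPM in WT and 0, 21.1 and 6.04 CPM in cKO.

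A pair of killer lectin-like receptor genes differed in opposite directions. Klrd1, which encodes CD94, was at 200 CPM in WT and 66.4 CPM in cKO pDCs (388 and 66 UMIs; ratio 0.332, 0.252 to 0.433). Klrk1, which encodes the activating receptor NKG2D, was at 32.4 and 117 CPM (63 and 116 UMIs; ratio 3.6, 2.63 to 4.97). Both were past the limit in all 14 alternative settings. After thinning, Klrd1 was detected in 54.7% of WT and 24.7% of cKO pDCs (56.9% and 38.9% before thinning), and Klrk1 in 11.1% and 36.6% (12.5% and 49.5% before thinning). At that depth the B cell shares were 15.6% and 16.7% for Klrd1 and 8 of 32 and 8 of 30 cells for Klrk1. Measured by these cells, the WT share of Klrk1 lies at or below background. They are only the deepest B cells, since 261 WT and 184 cKO B cells were shallower and left out. Before thinning, the B cell shares of Klrk1 were 5.12% and 7.94%. Other NK genes did not accompany Klrd1: Ncr1, the defining NK receptor, was at 4.63 and 3.02 CPM and Klrb1c at 6.18 and 9.06 CPM. Gzma, at 36.6 and 80.5 CPM, was the other NK marker past the limit, with 55 of its 80 cKO UMIs in 1 cell. In the other gated classes Klrd1 was also lower in cDC1 (128 and 49.0 CPM), cDC2 (395 and 98.9 CPM), mature dendritic cells (81.0 and 39.9 CPM) and neutrophils (66.3 and 18.7 CPM), was at 669 and 685 CPM in NK cells, and was higher in B cells (13.2 and 44.1 CPM). Klrk1 was higher in monocytes (26.6 and 117 CPM), macrophages (26.0 and 119 CPM) and T cells (167 and 285 CPM). It was also higher in neutrophils (35.4 and 73.4 CPM) and B cells (22.5 and 41.5 CPM). Its level was 494 and 556 CPM in NK cells (ratio 1.12, 1.07 to 1.18) and 236 and 225 CPM in cDC2.

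**Figure D4:**
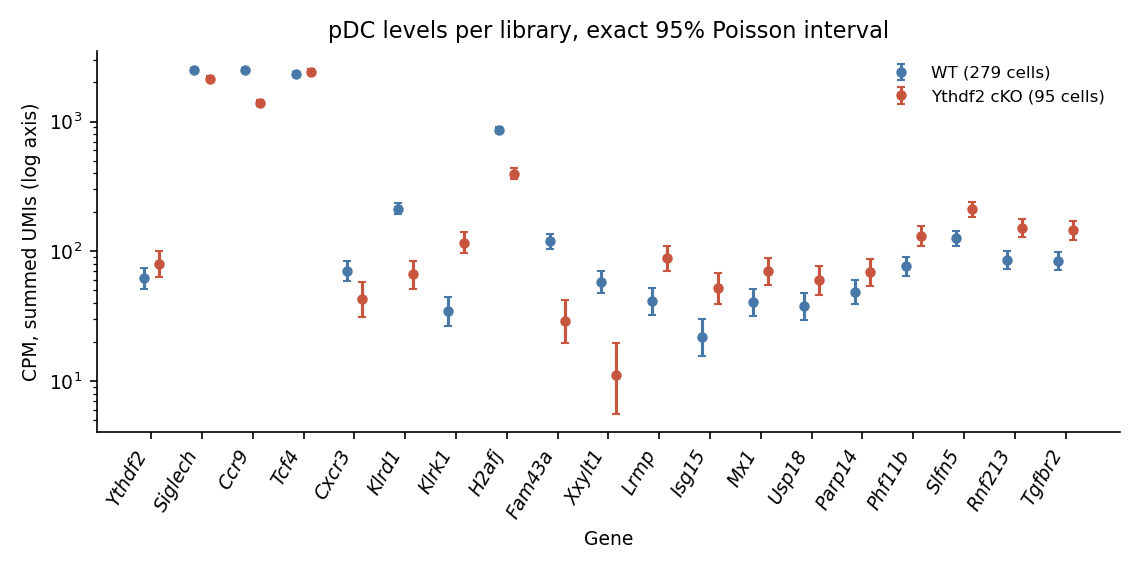
CPM on a log axis for 19 genes in WT pDCs without the 2 deep barcodes (279 cells, blue) and cKO pDCs (95 cells, red), with exact 95% Poisson intervals. Klrd1, H2afj, Fam43a and Xxylt1 sit lower and Klrk1, Lrmp and the interferon-response genes sit higher in the cKO pool, while the Tcf4 and Ythdf2 points lie close together.

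Lymphoid features were present in both pools. Of 12 such genes over 50 CPM, 1 was past the limit, Iglc1 (235 and 149 CPM), with a median of -0.12. The Iglc1, Iglc2 and Iglc3 genes are near-identical copies, so the split among them is uncertain. Ighm, the IgM heavy chain constant gene, was at 1526 and 1396 CPM. Igkc, the kappa light chain gene, was at 835 and 603 CPM and, after thinning, was found in 58.7% and 53.8% of pDCs (64.8% and 58.9% before), against 1.03% and 1.95% of NK cells. Dntt was found in 36% and 30.1% after thinning (40.2% and 34.7% before) and in 0 of the 194 WT NK cells (up to 1.55% of cells with a UMI). Cd8b1 was at 281 and 166 CPM in pDCs (ratio 0.591, 0.493 to 0.704), while Cd8a was at 79.3 and 118 CPM and the T cell genes Cd3d, Cd3e and Cd3g, held down by the gate, were under 5 CPM.

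The secretory machinery, which pDCs keep expanded much as plasma cells do, had a median log2 ratio of 0.04. Of its 34 genes, 2 were past the limit upward, against 1.88% of all genes: Edem1 (65.9 and 102 CPM) and Creld2 (58.7 and 95.6 CPM). Xbp1, the unfolded-protein factor, was at 375 and 424 CPM and Hspa5, the main chaperone of the endoplasmic reticulum, at 909 and 860 CPM. Of 11 cytokine receptor and survival genes 0 passed, and Flt3, the receptor for the growth factor of dendritic cells, was at 110 and 120 CPM. Dissociation and heat stress genes had 0 of 19 past the limit (median 0.12). UMIs of both Mki67 and Top2a, genes of dividing cells, were found in 4 WT pDCs and 0 cKO pDCs. Mki67, with or without Top2a, was in 4.98% and 6.32% before thinning. After thinning it was in 3.11% (7 of 225) and 1.08% (1 of 93). Of 51 oxidative phosphorylation genes, 0 passed (median -0.09).

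Glycolysis rested on the 2 deep barcodes. In all pDCs 7 of 14 glycolysis and hypoxia genes were past the limit downward in cKO (3.08% of all genes), with a median of -0.55: Tpi1 was at 291 and 97.6 CPM, Pgk1 at 270 and 150 CPM and Aldoa at 451 and 291 CPM. Without the 2 barcodes, which alone held 192 and 129 Tpi1 UMIs, 0 of 12 passed and the median was -0.06. The melanocytic markers rested on these barcodes only in part. Their 8 genes summed to 1252 CPM in WT and 18.1 CPM in cKO, and to 91.4 CPM in WT without these barcodes. The ratio was then still 0.198 (0.115 to 0.323). This sum was also lower in cKO for cDC2 (77.1 and 14.2 CPM) and B cells (5319 and 687 CPM). It was lower as well for monocytes (2613 and 276 CPM), T cells (1078 and 52.9 CPM) and NK cells (1952 and 17.7 CPM). Scrublet called 1 of the 2 a doublet, along with 16 other WT pDCs and 1 cKO pDC.

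**Figure D5:**
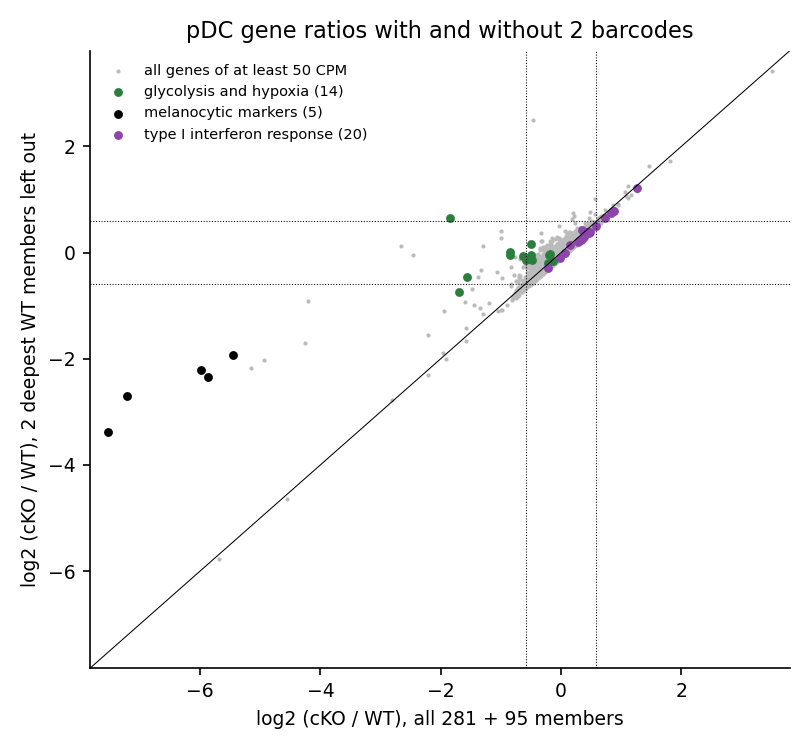
log2 ratio of cKO over WT per gene in all 281 + 95 pDCs (horizontal) and with the 2 deepest WT barcodes left out (vertical); grey points are all genes of at least 50 CPM, dotted lines mark 1.5-fold and the solid line equal values. Melanocytic (black) and glycolysis (green) genes leave the line, the glycolysis median going from -0.55 to -0.06, while the interferon-response genes (purple, median 0.39 and 0.37) stay on it.

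Macrophage and neutrophil markers were lower in the cKO pool. Macrophage markers summed to 363 CPM in WT and 95.6 CPM in cKO (281 CPM without the deep barcodes), with Apoe at 186 and 39.3 CPM; monocyte markers summed to 322 and 225 CPM, of which Lyz2 went from 133 to 33.2 CPM while Ccr2, the other over 50 CPM, was at 113 and 135 CPM; and neutrophil markers to 205 and 12.1 CPM, of which 1 WT cell held 176 of 199 S100a9 UMIs. The gate caps C1qa, C1qb, C1qc and Csf1r, all in the macrophage list, so that sum was partly set by the rule. Csf1r is in the monocyte list too. The cDC2, B, T and NK cell gates also cap C1qa, C1qb and C1qc. The macrophage sum was also lower in cKO for cDC2 (539 and 340 CPM) and B cells (1363 and 818 CPM). It was lower as well for T cells (1140 and 532 CPM) and NK cells (737 and 314 CPM). Apoe was past the limit downward in each of these classes. Lyz2 was also lower in the other gated classes, except mature dendritic cells (240 and 776 CPM). The neutrophil sum was lower in T cells (191 and 135 CPM) and monocytes (142 and 129 CPM). In B cells (33.4 and 14.1 CPM) and NK cells (36.9 and 29.1 CPM) it was lower too, but not in cDC2 (28.0 and 29.5 CPM). The part of these markers in the lower genes below was not tested. Markers of cDC1 summed to 3851 and 3731 CPM, mostly Irf8, with Xcr1 at 0 in both, those of cDC2 to 681 and 745 CPM, and those of mature dendritic cells to 395 and 330 CPM. In all, 3 markers of transitional dendritic cells were past the limit upward: Crip1 (278 and 438 CPM), Lgals3 (237 and 388 CPM) and S100a4 (49.4 and 96.6 CPM), of 6 genes over 50 CPM with a median of 0.62. Without the 2 deep barcodes the 3 past the limit were Lgals3, S100a4 and Vim (275 and 460.0 CPM), and Crip1 was not (log2 ratio 0.58). In pDCs with all 6 markers Crip1 was at 175 and 185 CPM, S100a4 at 35.5 and 29.1 CPM and Lgals3 at 136 and 220.2 CPM, so the first 2 were close there.

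Among genes over 50 CPM, those of largest difference whose level was not small beside another class were named. Left out of this choice were gate genes, unnamed genes, receptor segments, haemoglobin genes, and genes of ribosomes and mitochondria. The sex-linked genes Uty, Kdm5d, Ddx3y, Eif2s3y, Tsix and Xist were left out too. On the lower side, Xxylt1, which adds xylose to Notch proteins, was at 55.1 and 11.1 CPM (ratio 0.201, 0.0974 to 0.374), found in 80 of 281 WT and 8 of 95 cKO pDCs. Fam43a was at 112 and 29.2 CPM (0.260, 0.170 to 0.384). H2afj, a histone H2A variant, was at 822 and 397 CPM (0.482, 0.431 to 0.539). These 3 were past the limit in all 14 alternative settings. Xxylt1 was also lower in monocytes (12.7 and 3.73 CPM), macrophages (14.9 and 3.87 CPM) and T cells (8.96 and 5.07 CPM). Its ratio was below 1 in B cells, NK cells, cDC2 and neutrophils too, with intervals that include 1. H2afj was at 313 and 316 CPM in NK cells and 321 and 394 CPM in cDC2. Tecpr1, Serpinh1 and Maged1 were lower with and without the deep barcodes, with log2 ratios of -1.95, -1.45 and -1.35 over all pDCs and -1.10, -0.99 and -1.05 without them. Phlda1, Ss18l2, Selenoh, Ugp2, Hk2, Bnip3 and Ifi27 held 46 to 113 of their WT UMIs in 1 cell, except Ss18l2 with 37.

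On the higher side, Lrmp, an endoplasmic reticulum membrane protein of lymphoid cells, was at 39.1 and 88.6 CPM (ratio 2.26, 1.65 to 3.12). Rbmxl1 was at 26.3 and 56.4 CPM (2.15, 1.44 to 3.20), the TGF-beta receptor gene Tgfbr2 at 81.4 and 146 CPM (1.79, 1.42 to 2.26), and the interferon-inducible ubiquitin ligase Rnf213 at 84.5 and 152 CPM (1.80, 1.43 to 2.26). All 4 were past the limit in all 14 alternative settings. Lrmp was higher in the cKO library in all other gated classes measured as well, by 1.16 to 2.38 times. Rbmxl1 was also higher there in B cells (1.77 times), T cells (1.62), macrophages (1.44) and monocytes (1.41). Tgfbr2 was also higher in cDC2 (1.95 times, 1.43 to 2.72) and monocytes (1.64), while its ratio was 0.993 in T cells. Trp53i11 (79.3 and 148 CPM), Socs3, a brake on cytokine signalling (59.2 and 106 CPM), the RNA helicase Ddx10 (27.3 and 50.3 CPM), Cfap43 (30.9 and 58.4 CPM) and Fam46a (31.4 and 56.4 CPM) completed this side. Sct, the hormone secretin, at 5.66 and 74.5 CPM, and Tbc1d4, at 18 and 51.3 CPM, rested on single cells, with 60 of 74 and 43 of 51 cKO UMIs in 1 cell.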

How the data were processed

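Droplet libraries of transcript 5′ ends from CD45+ tumour cells were used, 1 per label. The deposited values are raw UMI counts per gene and barcode, which the authors made with Cell Ranger 5.0.1 and mm10, per the submitters' processing notes (the file headers give cellranger 5.0.0). UMIs of the gated cells were summed per library, scaled to CPM and compared as log2 ratios with a pseudocount of 1 CPM and a floor of 50 CPM in either library, in Python 3.11.15 with numpy 2.4.6, scipy 1.17.1 and pandas 2.3.3. With 1 library per label no test exists; a size limit of 1.5-fold was used, with exact Poisson, Clopper-Pearson and conditional binomial intervals. The scripts were tested on simulated data. Doublets were left in beyond the gate; Scrublet in scanpy 1.11.5 was an alternative. Named genes were the pDC markers, YTHDF readers and Lyz2, up to 15 of largest ratio a side, up to 6 of highest level and 6 past the limit per list, the leading other-cell markers, and the 20 genes of highest ratio to other classes. The choice by largest ratio left out gate genes, sex-linked genes and the other groups given above. The members, lists and rules were chosen with earlier results of these data known. Other gated classes were set by marker UMIs. Coordinates are those of RefSeq windows on GRCm38.p6.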

Additional observations from a re-analysis of the deposited data

How the results depend on the processing

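The lower pDC share kept its direction in all 10 alternatives, with log2 ratios from -1.31 to -0.60, the last under the strict exclusions. Of 64 genes higher in cKO, the count became 116 when Ccr9, Klk1 and Cox6a2 were not required, 155 under strict exclusions, 147 when barcodes were thinned before the gate, 125 when cells were thinned to 1 depth, 1381 with no floor and 12 with a floor of 200 CPM. Of 105 genes lower in cKO, it became 173 under strict exclusions, 3803 with no floor and 15 with a floor of 200 CPM. The type I interferon response median went from 0.39 to 0.22 with at most 5% mitochondrial UMIs, 0.46 with at least 1 Siglech UMI, 0.48 when Ccr9, Klk1 and Cox6a2 were not required, and 0.14 under strict exclusions. It was above 0 in all 16 alternatives. Named genes on the other side of 0 were, under strict exclusions, Pgk1 (0.15), Eno1 (0.40), Hk2 (0.32), Tpi1 (0.018), Aldoa (0.16), Tbc1d4 (-0.85), Ugp2 (0.51), Ccl5 (1.04), Ccl3 (0.058) and Iigp1 (-0.10). Thinned before the gate, they were Pgk1 (0.34), Eno1 (0.24), Hk2 (1.13), Apoe (0.21), Aldoa (0.048), Phlda1 (0.93), Lyz2 (0.00084), Tbc1d4 (-0.032), Ugp2 (0.078) and Ccl5 (3.34). Without the 2 deep barcodes, an alternative chosen after seeing the data, they were Eno1 (0.0010), Hk2 (0.65) and Ugp2 (0.41). Thinned to 1 depth they were Hk2 (0.076) and Ugp2 (0.20), with every cell weighted equally Ugp2 (0.10), with at least 4 Siglech UMIs Tbc1d4 (-0.81), and with 4 of 6 markers Tbc1d4 (-0.96). Beyond the cells or genes each setting leaves in, the cause was not tested. Of 67 named genes past 1.5-fold, 42 to 67 stayed past it, the fewest under strict exclusions. No paired analysis was possible because each label has 1 library. Depth limits low genes most: a gene with 0 UMIs can stand at up to 1.54 CPM in WT and 3.02 CPM in cKO pDCs.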

Other observations

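Genes past the limit were spread unevenly over the chromosomes. Without the 2 deep barcodes, 17 of 178 chromosome 6 genes over 50 CPM (9.55%) differed by 1.5-fold or more, against 3.86% of all 3392 genes, and the other autosomes ranged from 1.49% to 6.09%. Of the 17 genes, 9 were higher and 8 lower in cKO, among them Tmem176b, Cd8b1, Immt, Edem1, Usp18, Apobec1, Ing4, Tapbpl, Ccnd2, Clec2i, Klrd1, Klrk1, H2afj, Ldhb, Lrmp and 2810474O19Rik. Klrd1 and Klrk1 are neighbours at 129.6 Mb, H2afj lies at 136.8 Mb, and Lrmp lies at 145.1 Mb (GRCm38). Ldhb, a lactate dehydrogenase subunit at 142.5 Mb, was at 82.0 CPM in WT without these barcodes and 167 CPM in cKO pDCs, a log2 ratio of 1.02. In T, NK, B, monocyte and cDC2 gates its log2 ratio was -2.28, -4.00, -1.93, -1.27 and -0.79. Ccnd2, which drives entry into the cell cycle, was at 123 and 193 CPM in pDCs. The chromosome and these genes, where the rule does not name them, were chosen after their values were seen, and no test was run. Also without the 2 deep barcodes, the only Y chromosome gene over 50 CPM was past the limit upward in cKO. Of 94 X chromosome genes, 0 were higher and 3 lower past the limit. Whether the mice of the libraries differed in sex was not tested.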
